A study of Mus musculus with 6 samples.

Results

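The genes that encode the mitochondrial respiratory chain were compared between F4/80high and F4/80low tumor-associated macrophages (TAMs) of mouse melanoma. Members were chosen by name, as protein-coding rows for the subunits of complexes I to V that reached a total of 10 counts in the 6 libraries. The rule gave 102 genes of the 14776 protein-coding genes tested and of 23424 genes in the count tables. Of these, 89 belong to the nuclear genome and 13 to the mitochondrial genome. No gene named by the rule had fewer counts than the minimum, and 4 rows that carry a matching name but another biotype were left out. The lowest member was Ndufa4l2, with 60 counts in all, and the next was Cox7a1, with 119.

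Both subsets were sorted by flow cytometry, as live CD45+ Lin- CD11b+ F4/80+ cells, from intradermal YUMM1.7 tumors on day 21. YUMM1.7 is a mouse melanoma line that carries BRAF V600E and lacks Cdkn2, and the hosts were untreated female wild-type C57Bl/6J mice that were 8 weeks old when the tumors were started. Each library pooled the TAMs of 10 tumors, and each subset has 3 libraries from 3 independent experiments. The high and the low library with the same replicate number were taken as a pair. As a model, the data describe 1 transplanted line in 1 sex and strain of host, and the pooling removes the spread between animals.

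As background, the respiratory chain is a set of protein complexes in the inner mitochondrial membrane. Complex I (NADH dehydrogenase) and complex II (succinate dehydrogenase) pass electrons to ubiquinone, complex III (the cytochrome bc1 complex) passes them on to cytochrome c, and complex IV (cytochrome c oxidase) passes them to oxygen. Complexes I, III and IV pump protons, and complex V (ATP synthase) uses the proton gradient to make ATP. Complex II is built from nuclear genes alone, whereas each of the other complexes needs subunits from both genomes. The mitochondrial genes are transcribed as long precursors from either strand that are then cut, and they are described apart from the nuclear subunits. In macrophages, the balance between respiration and glycolysis is known to differ between activation states.

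Counts are given as TMM-scaled CPM (counts scaled to a common library total), in the order of replicates 1, 2 and 3 throughout. The libraries held 16045281 to 43604373 counts. The study treated replicates 1 and 2 as a first batch and replicate 3 as a second batch, and in the second batch Lars2, Gm23935 and Gm15564 together took 16.1% to 17.1% of the counts, against 0.378% to 0.609% in the first. Adgre1, which encodes F4/80, stood at 273, 539 and 359.9 CPM in F4/80high TAMs and 243, 326 and 183 CPM in F4/80low TAMs, higher in the high library of every pair, although the subsets overlapped (log2 fold change 0.67, SE 0.30, edgeR adjusted p = 0.673). All 8 macrophage markers were detected in every library and summed to 4299 to 23124 CPM in the F4/80high and 5161 to 10984 CPM in the F4/80low TAMs. Log2 fold changes were above 0 in 5 of them and below 0 in 3. The sum was higher in the high library of pair 2 (23124 against 10927 CPM). It was lower in the high library of pair 1 (8163 against 10984 CPM) and of pair 3 (4299 against 5161 CPM). Neutrophil markers had negative log2 fold changes in 8 of 8 genes and eosinophil markers in 8 of 8, with summed levels of 628 to 1752 CPM in the F4/80high and 1308 to 3679.8 CPM in the F4/80low TAMs for the former and 93.6 to 187 CPM in the F4/80high and 270.1 to 619.9 CPM in the F4/80low TAMs for the latter. T or NK cell markers had a positive log2 fold change in 8 of 8 genes (143 to 1057 CPM in the F4/80high and 65.2 to 499 CPM in the F4/80low TAMs). In pair 2, however, only 1 of the 8 was higher in the high library, and the sums were 331 CPM in the high and 499 CPM in the low library. Cycling cell markers were above 0 in 6 of 6, and fibroblast, mast cell or basophil, erythroid and dendritic cell markers were below 0 in 7 of 7, 7 of 7, 4 of 4 and 6 of 7. No marker passed the threshold with the batch term, and with the replicate block 4 neutrophil, 1 dendritic cell and 1 macrophage marker did. Mpo and Epx were at 0 counts in at least 1 library. Of 8 melanoma markers, Tyr, Tyrp1 and Dct were at 0 in all 6 libraries, and 4 others were tested. These 4 summed to 26.3 to 172 CPM in the F4/80high and 14.8 to 112 CPM in the F4/80low TAMs. Their log2 fold change was above 0 in 3 and below 0 in 1, and their sum was higher in the high library of all 3 pairs. The part of these other cells in the results below was not tested, and fewer cells of a type cannot be told apart from less RNA per cell in bulk libraries.

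No respiratory chain gene differed between the subsets past the threshold that the study set, an adjusted p under 0.05 with an absolute log2 fold change above 1. In edgeR with a batch term, 0 of 102 members and 0% of all genes tested passed it. The counts for all genes were 150 in DESeq2 with the same terms, 76 in edgeR with the replicate number as a block (0.514%, and 0.514% also with no fold threshold) and 357 in DESeq2 with the block, and no member was among them in any of these fits. At an unadjusted p under 0.05, the edgeR batch fit held 0 members, whereas it held 482 genes that were higher in F4/80high TAMs (3.26% of all genes tested) and 636 that were lower (4.3%). The smallest adjusted p of a member was 0.683 in that fit, and its standard errors for the nuclear members had a median of 0.25 on the log2 scale.

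In direction, the nuclear members leaned to the F4/80high side by a small amount that depended on the pair. Of the 89 nuclear members, 68 had a log2 fold change above 0, against 50.8% of all genes tested, and their median was 0.11, against 0.0089 for all genes. Within pairs, 81 nuclear members were higher in the high library of pair 1, 29 in pair 2 and 62 in pair 3. Higher in all 3 pairs were 23 of 89 nuclear members, against 16% of all genes. Higher in no pair were 2, against 18.1% of all genes. These last values count ties as not higher, and 1 of the 2 is Ndufa4l2, with 0 counts in both libraries of pair 3. The other, Ndufv1, was lower in each pair. The subsets did not overlap, with the high side above, for 2 nuclear members (2.27% of all genes), and with the high side below for 0 (2.88% of all genes).

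The count depended most on the low library of replicate 1. Without the F4/80low library of replicate 1, 38 of 89 nuclear members were above 0 and the median was -0.021. Without the F4/80low library of replicate 2, the count was 79 and the median 0.27. With each of the other libraries left out in turn, the count lay between 57 and 74. The plot of pair differences shows how the lists stand apart by pair and by genome.

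**Figure D1:**
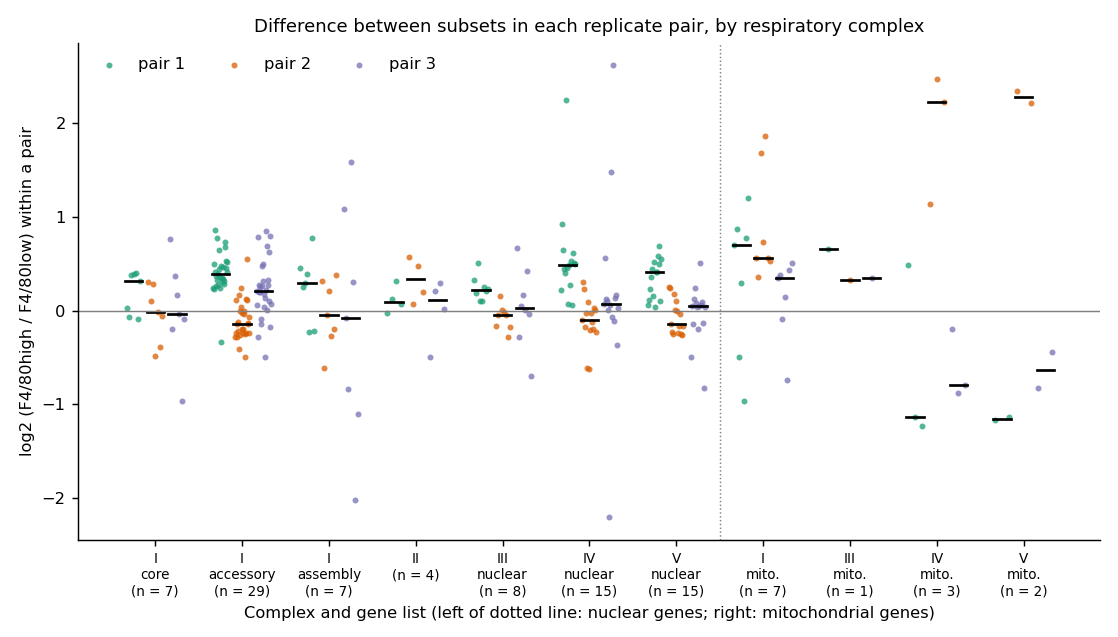
Each point is 1 member, plotted as the log2 ratio of TMM-scaled CPM (prior count 2) of the F4/80high over the F4/80low library with the same replicate number, and black bars are medians; 98 members in 11 lists are shown. The nuclear lists have medians between -0.14 and 0.49 in every pair, while the mitochondrial genes of complexes IV and V have medians below -1 in pair 1, above 2 in pair 2 and below 0 in pair 3.

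Complex I takes electrons from NADH, and its nuclear core subunits hold the flavin and the iron-sulfur clusters. Ndufs1 and Ndufs3 leaned to the F4/80high side and Ndufv1 to the F4/80low side, none of them past the test, and the 7 core subunits had a median log2 fold change of 0.045. Ndufs1, the large iron-sulfur subunit, had 49.7, 58.6 and 81.3 CPM in F4/80high TAMs and 48.9, 47.4 and 47.7 CPM in F4/80low TAMs. The lowest high library stood above the highest low library, the difference was 0.026, 0.30 and 0.77 on the log2 scale in the pairs, and the test did not pass (edgeR, log2 fold change 0.37, SE 0.23, adjusted p = 0.723). Ndufs3, a subunit of the arm that reduces ubiquinone, had 45.3, 54.4 and 33.6 CPM against 34.8, 44.8 and 25.96 CPM and was higher in the high library of each pair, by 0.38, 0.28 and 0.37 on the log2 scale (edgeR, log2 fold change 0.34, SE 0.23, adjusted p = 0.741). Ndufv1, which binds NADH and the flavin, went the other way in each pair, with 72.98, 67.5 and 18.2 CPM against 77.5, 88.6 and 35.8 CPM and pair differences of -0.087, -0.39 and -0.97 (edgeR, log2 fold change -0.47, SE 0.24, adjusted p = 0.696). The medians of the core list in pairs 1, 2 and 3 were 0.32, -0.013 and -0.032.

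The accessory subunits of complex I surround the core and are needed for its assembly and stability. A majority of them, 24 of 29, had a log2 fold change above 0, with a median of 0.13 and pair medians of 0.39, -0.14 and 0.22. In pair 1 28 of the 29 were higher in the high library, in pair 2 only 7 and in pair 3 24. Ndufc1, a small membrane-arm subunit, was at 24.6, 34.2 and 9.39 CPM in F4/80high TAMs and 14.8, 23.3 and 7.74 CPM in F4/80low TAMs, higher by 0.74, 0.55 and 0.28 in the pairs (edgeR, log2 fold change 0.52, SE 0.30, adjusted p = 0.708). Ndufa9, which sits near the ubiquinone site, showed 64.7, 75.4 and 18.5 CPM against 47.4, 63.9 and 13.2 CPM and pair differences of 0.45, 0.24 and 0.48 (edgeR, log2 fold change 0.38, SE 0.23, adjusted p = 0.716). Both genes were far lower in replicate 3 of either subset, so that the subsets overlapped across pairs. Ndufb2, with a deposited length of 5628 bases, had the lowest level per length of the complex I members, although in CPM others were lower. It was the only accessory subunit below 0 in pair 1 (3.98, 3.28 and 23.2 CPM against 5.04, 3.88 and 22.7 CPM, edgeR log2 fold change -0.19, SE 0.32, adjusted p = 0.924). Ndufa6, which carries the acyl carrier protein on the complex, had 35.7, 30.9 and 30.1 CPM against 28.4, 41.1 and 33.1 CPM (edgeR, log2 fold change -0.086, SE 0.25, adjusted p = 0.958). The 36 nuclear subunits of complex I together had a median of 0.13, which was -0.0095 without the F4/80low library of replicate 1.

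The Ndufaf genes encode factors that help build complex I and do not stay in it. This list went both ways, with 2 of 7 above 0 and a median of -0.15. Ndufaf1 was measured at 15.6, 17.4 and 8.31 CPM in F4/80high TAMs and 11.3, 13.9 and 3.87 CPM in F4/80low TAMs, with pair differences of 0.45, 0.32 and 1.09 (edgeR, log2 fold change 0.60, SE 0.32, adjusted p = 0.699). Ndufaf4 was measured at 13.3, 21.5 and 10.4 CPM against 10.1, 18.6 and 3.42 CPM, with pair differences of 0.40, 0.21 and 1.58 (edgeR, log2 fold change 0.67, SE 0.42, adjusted p = 0.716). Both were higher in the high library of every pair, and in both the gap was widest in replicate 3. Ndufaf7, a methyltransferase, had 19.4, 19.4 and 11.7 CPM against 22.5, 14.8 and 25.2 CPM (edgeR, log2 fold change -0.32, SE 0.33, adjusted p = 0.847), and Ndufaf6 had 7.36, 4.89 and 0.5399 CPM against 4.26, 5.599 and 2.39 CPM (edgeR, log2 fold change -0.32, SE 0.60, adjusted p = 0.9296). Their direction turned between pairs. Without replicate 3 of both subsets, the median of the list was 0.12, on the other side of 0.

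Complex II joins the tricarboxylic acid cycle to the chain by oxidizing succinate. All 4 subunit genes had log2 fold changes above 0, with a median of 0.12 and pair medians of 0.10, 0.34 and 0.11, and none passed the test. Sdhc, a membrane anchor, was higher in the high library of each pair, with 92.2, 131 and 48.9 CPM in F4/80high TAMs and 73.8, 94.6 and 39.7 CPM in F4/80low TAMs and pair differences of 0.32, 0.47 and 0.30 (edgeR, log2 fold change 0.37, SE 0.24, adjusted p = 0.723). Sdhb, the iron-sulfur subunit, had 149.6, 177 and 35.5 CPM against 138, 169 and 30.7 CPM (edgeR, log2 fold change 0.13, SE 0.21, adjusted p = 0.9195). Sdhd, the other anchor, had 139, 191 and 31.7 CPM against 132, 166 and 31.4 CPM (edgeR, log2 fold change 0.10, SE 0.23, adjusted p = 0.943), and both genes were higher in each pair by 0.014 to 0.21 on the log2 scale. Sdha, the catalytic flavoprotein, differed from pair to pair, with 180.03, 256 and 38.8 CPM against 182, 173 and 54.7 CPM and pair differences of -0.019, 0.57 and -0.50 (edgeR, log2 fold change 0.040, SE 0.26, adjusted p = 0.984). Per kilobase, Sdhd was the most abundant of the 4, at 93.7 ± 63.04 CPM per kilobase in F4/80high TAMs, and Sdhc the least, at 27.9 ± 12.7 (SD, n = 3). In CPM, Sdha was above Sdhd, at a mean of 158 against 121 in F4/80high and 137 against 110 in F4/80low TAMs. Without the F4/80high library of replicate 2, the median of the complex was -0.026.

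Complex III hands electrons from ubiquinol to cytochrome c. Its 8 nuclear genes had a median log2 fold change of 0.058, with 5 of 8 above 0 and pair medians of 0.22, -0.049 and 0.025. Uqcrfs1, which encodes the Rieske iron-sulfur protein, was at 92.3, 98.6 and 74.4 CPM in F4/80high TAMs and 77.2, 102 and 55.6 CPM in F4/80low TAMs (edgeR, log2 fold change 0.20, SE 0.22, adjusted p = 0.863). Uqcr10, a small structural subunit, was at 37.9, 35.5 and 17.1 CPM against 30.1, 39.7 and 10.7 CPM (edgeR, log2 fold change 0.26, SE 0.26, adjusted p = 0.835). Both were higher in pairs 1 and 3 and lower in pair 2. Uqcrq, a small subunit next to cytochrome b, was the lowest of the complex per length and had 46.5, 51.2 and 47.5 CPM against 39.5, 57.98 and 77.1 CPM (edgeR, log2 fold change -0.23, SE 0.26, adjusted p = 0.868), and Uqcrh, the hinge subunit, had 51.03, 45.96 and 42.2 CPM against 43.99, 55.8 and 43.3 CPM (edgeR, log2 fold change -0.039, SE 0.22, adjusted p = 0.9803). The small negative value of Uqcrh turned positive with scaling by library size alone. The median lay on the other side of 0 without the F4/80low library of replicate 1 (-0.024) and without the F4/80high library of replicate 2 (-0.0081).

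Complex IV reduces oxygen to water, and several of its nuclear subunits come in paralogs of which 1 is used widely and the other in muscle, lung or testis. Of the 15 nuclear genes, 14 had a log2 fold change above 0, with a median of 0.11 and pair medians of 0.49, -0.10 and 0.076. All 15 were higher in the high library of pair 1, 5 in pair 2 and 11 in pair 3. Cox5a, a matrix-side subunit, had 39.7, 46.5 and 18.03 CPM in F4/80high TAMs and 25.3, 39.7 and 16.5 CPM in F4/80low TAMs, higher in each pair by 0.65, 0.23 and 0.13 (edgeR, log2 fold change 0.32, SE 0.27, adjusted p = 0.794). Cox7b, a small membrane subunit, had 52.4, 53.3 and 60.9 CPM against 34.2, 52.1 and 54.3 CPM and was also higher in each pair, by 0.61, 0.031 and 0.16 (edgeR, log2 fold change 0.25, SE 0.24, adjusted p = 0.821). Cox7a2l, which takes part in joining complexes III and IV, had 67.03, 74.3 and 79.3 CPM against 64.2, 85.3 and 72.1 CPM and was the only gene of the list below 0, by an amount close to 0 whose sign turned in 6 of 21 alternative fits (edgeR, log2 fold change -0.0087, SE 0.22, adjusted p = 0.997). Without the F4/80low library of replicate 1 the median of the list was -0.061.

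In both subsets the widely expressed paralogs of complex IV had the higher levels. Cox4i1 stood at 114 ± 51.6 CPM per kilobase in the F4/80high subset and 110.03 ± 54.8 in the F4/80low subset (SD, n = 3), whereas Cox4i2, the form known from lung and hypoxia, stood at 2.5 ± 0.142 and 1.64 ± 0.296. The same order held for Cox6a1 (126 CPM per kilobase over all 6 libraries) over the muscle form Cox6a2 (1.02), for Cox6b1 (122) over the testis form Cox6b2 (0.902), and for Cox7a2 (69.5) over the muscle form Cox7a1 (1.94). Cox8a reached 133 CPM per kilobase. Cox4i2 had 2.02, 1.84 and 2.05 CPM in F4/80high TAMs and 1.03, 1.47 and 1.37 CPM in F4/80low TAMs, and its lowest high library exceeded its highest low library, although the counts were few (80, 95 and 19 against 41, 60 and 12) and the test did not pass (edgeR, log2 fold change 0.61, SE 0.68, adjusted p = 0.861). The log2 ratio of Cox4i1 to Cox4i2 per length was 5.36 ± 0.879 in the high and 5.91 ± 0.921 in the low libraries (SD, n = 3), lower in the high library of every pair, by -0.75, -0.42 and -0.49. An exact two-sided permutation test that ignores the pairs gave p = 0.5, and an exact sign-flip permutation test within pairs gave p = 0.25, the smallest that 3 pairs allow.

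Ndufa4 was first counted as a subunit of complex I and is now placed in complex IV, and Ndufa4l2 is its paralog known to be induced in hypoxia. Ndufa4 was at 48.9, 41.1 and 26.99 CPM in F4/80high TAMs and 35.4, 49.6 and 24.3 CPM in F4/80low TAMs, higher in pairs 1 and 3 and lower in pair 2 (edgeR, log2 fold change 0.10, SE 0.24, adjusted p = 0.944). Ndufa4l2 had 4, 7 and 0 counts in the high libraries and 31, 18 and 0 counts in the low libraries, so both libraries of the second batch were at 0 and all counts came from the first (edgeR, log2 fold change -2.28, SE 1.76, adjusted p = 0.7801). In the 2 pairs that had counts the low library was higher. The log2 ratio of Ndufa4 to Ndufa4l2 per length was higher in the high library of these pairs, by 3.26 and 1.37, and was not tested, since in replicate 3 it is only a lower bound. Over the 7 paralog ratios with counts in every library, the unpaired permutation p, for which 0.1 is the smallest value 3 libraries a subset allow, was 0.9 after adjustment in each. The plot of paralog levels shows this order in every library.

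**Figure D2:**
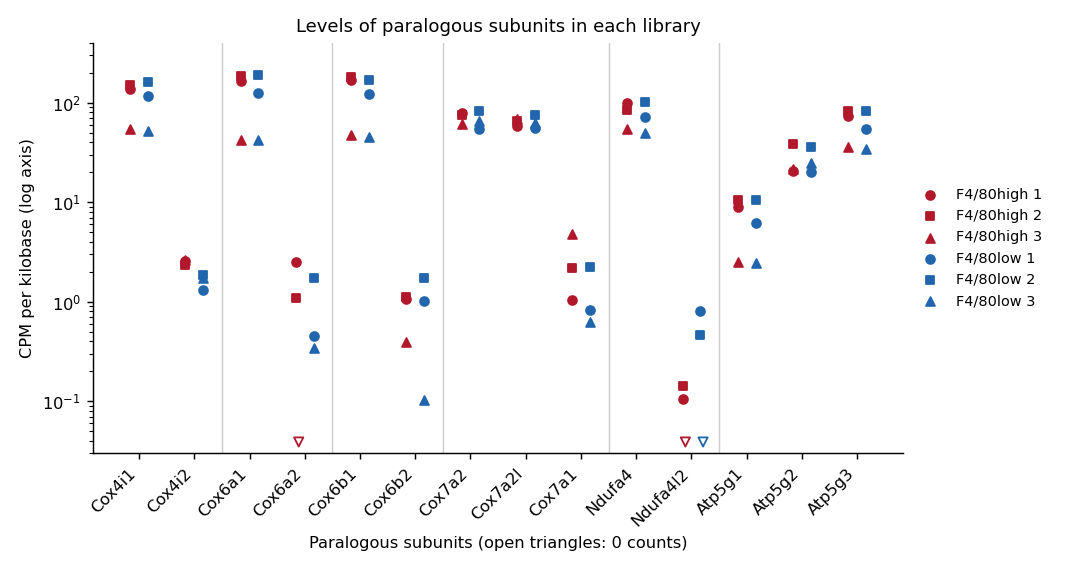
Points give the TMM-scaled CPM per kilobase (log axis) of each paralogous subunit gene in each of the 6 libraries, and open triangles mark libraries with 0 counts. Cox4i1, Cox6a1, Cox6b1, Cox7a2 and Ndufa4 lie more than 10-fold above Cox4i2, Cox6a2, Cox6b2, Cox7a1 and Ndufa4l2 in each library, and Cox7a2 and Cox7a2l lie close together.

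Complex V makes ATP in its catalytic head, which is driven by a rotating ring in the membrane. Its 15 nuclear subunit genes had a median log2 fold change of 0.12, with 11 of 15 above 0 and pair medians of 0.41, -0.14 and 0.053. All 15 were higher in the high library of pair 1, 5 in pair 2 and 10 in pair 3. Atp5h, a subunit of the peripheral stalk, had 87.04, 73.6 and 33.9 CPM in F4/80high TAMs and 65.1, 86.9 and 23.8 CPM in F4/80low TAMs (edgeR, log2 fold change 0.22, SE 0.24, adjusted p = 0.854), and Atp5j2, a small membrane subunit, had 57.9, 51.3 and 39.2 CPM against 41.01, 52.4 and 36.7 CPM (edgeR, log2 fold change 0.18, SE 0.23, adjusted p = 0.879). Atp5l, another membrane subunit, leaned to the low side, with 28.1, 28.7 and 12.6 CPM against 26.3, 34.4 and 22.4 CPM (edgeR, log2 fold change -0.33, SE 0.27, adjusted p = 0.794). Atp5a1, the alpha subunit of the head, had the highest mean level per length of the nuclear members over all 6 libraries (140.4 CPM per kilobase, against 138 for the beta subunit Atp5b). The order of these 2 rests on the deposited lengths of 3135 and 4237 bases. In CPM, Atp5b was higher, at a mean of 620 against 443 in F4/80high and 552 against 438 in F4/80low TAMs. Atp5a1 stood at 141 ± 58.2 CPM per kilobase on the high side and 139.6 ± 26.3 on the low side (SD, n = 3), and it went both ways between pairs (471, 609 and 248 CPM against 451, 513 and 349 CPM, edgeR log2 fold change -0.054, SE 0.24, adjusted p = 0.973). Without the F4/80low library of replicate 1 the median of the list was -0.044.

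The membrane ring of complex V is made of identical c subunits that Atp5g1, Atp5g2 and Atp5g3 encode. Per length the order was Atp5g3 (60.7 CPM per kilobase over all libraries), Atp5g2 (26.99) and Atp5g1 (6.86), and it was the same in each library. Atp5g1 was at 43.98, 51.7 and 12.4 CPM against 30.6, 51.3 and 12.1 CPM, Atp5g2 at 34.8, 65.1 and 35.8 CPM against 33.8, 60.7 and 41.1 CPM and Atp5g3 at 159, 182 and 77.6 CPM against 119.6, 182 and 74.7 CPM, with log2 fold changes of 0.17, -0.010 and 0.14. The log2 ratio of Atp5g1 to Atp5g3 was -3.27 ± 0.465 in the high and -3.31 ± 0.427 in the low libraries (SD, n = 3), with p = 0.9 in an exact two-sided permutation test that ignores the pairs. Atp5g2 shares 35.8% of its 75-base windows with other annotated genes, so its counts could be split by the counting. Atp5s, a factor related to the synthase, was the lowest of the Atp5 genes (3.48, 7.47 and 2.59 CPM against 4.33, 8.47 and 1.14 CPM, edgeR log2 fold change 0.17, SE 0.56, adjusted p = 0.961), and Atp5sl, which is named for its likeness to Atp5s and is no subunit, had 22.4, 17.2 and 4.75 CPM against 14.9, 18.4 and 3.302 CPM (edgeR, log2 fold change 0.33, SE 0.30, adjusted p = 0.809).

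The mitochondrial genes split into a set of 7 and a set of 6 that followed the libraries in different ways. All 13 had log2 fold changes above 0 with a median of 0.43, but the 2 sets differed in how that came about. The 7 genes mt-Nd1, mt-Nd2, mt-Co1, mt-Nd4, mt-Nd5, mt-Nd6 and mt-Cytb had a median of 0.52, and 6 of them were higher in the high library of every pair, all but mt-Co1. The 6 genes mt-Co2, mt-Atp8, mt-Atp6, mt-Co3, mt-Nd3 and mt-Nd4l had a median of 0.30 with a wide spread, and none of them went the same way in every pair. The sets were chosen after their values were seen and carry no test of their own.

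Among the 7, mt-Nd6, the complex I subunit encoded on the other strand, had 53.6, 79.8 and 308 CPM in F4/80high TAMs and 23.2, 55.3 and 216 CPM in F4/80low TAMs. It was higher in each pair, by 1.21, 0.53 and 0.51 on the log2 scale, and the subsets overlapped across pairs, with the second batch far above the first (edgeR, log2 fold change 0.68, SE 0.33, adjusted p = 0.6896). The mt-Nd6 gene overlaps mt-Nd5, on the opposite strand, by 14 bases. The strand setting of the counting is not given here, so whether the mt-Nd6 counts hold reads of the opposite strand is not known. For mt-Nd5, a proton-pumping subunit, the values were 354, 532 and 414 CPM against 207, 361 and 307 CPM (edgeR, log2 fold change 0.57, SE 0.28, adjusted p = 0.6896). For mt-Nd1, which forms part of the ubiquinone site, they were 511, 742 and 931 CPM against 315, 503 and 731 CPM (edgeR, log2 fold change 0.53, SE 0.27, adjusted p = 0.694). Both genes were higher in the high library of each pair, and in both the F4/80low library of replicate 1 was the lowest of all 6. mt-Nd2 had 181, 199 and 597 CPM against 98.9, 154 and 459 CPM (edgeR, log2 fold change 0.52, SE 0.24, adjusted p = 0.683) and mt-Nd4 had 361, 612 and 1035 CPM against 294, 369 and 936 CPM (edgeR, log2 fold change 0.42, SE 0.27, adjusted p = 0.723), and these proton-pumping subunits were likewise higher in each pair. mt-Cytb, the cytochrome b of complex III, had 744, 965 and 626 CPM against 470.01, 769 and 492 CPM, with pair differences of 0.66, 0.33 and 0.35 (edgeR, log2 fold change 0.43, SE 0.26, adjusted p = 0.714). mt-Co1, the catalytic subunit of complex IV, had 1053, 1988 and 2092 CPM against 750.1, 904 and 2397 CPM, higher in pairs 1 and 2 and lower in pair 3 (edgeR, log2 fold change 0.52, SE 0.32, adjusted p = 0.716).

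With the replicate number as a block, which compares the libraries within a pair, 5 of the 102 members had an unadjusted p under 0.05 where the batch fit had none. They were mt-Nd1, mt-Nd2, mt-Nd5, mt-Nd6 and mt-Cytb, all higher in F4/80high TAMs, beside 585 of all genes in that direction (3.96%). No member was lower at that level, beside 869 of all genes (5.88%). After adjustment over all genes the smallest edgeR p of the 5 was 0.247, for mt-Nd6, and that of mt-Cytb was 0.449. The smallest DESeq2 adjusted p of any member with the block was 0.0564. The summed level of the 7 genes was 3259, 5117 and 6003 CPM in F4/80high TAMs and 2157, 3115 and 5539 CPM in F4/80low TAMs. The high library was above the low library in each pair, while across pairs the low library of replicate 3 exceeded the high libraries of replicates 1 and 2.

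The other 6 genes lie side by side on the mitochondrial genome, from mt-Co2 to mt-Nd4l, at chrM:7013-10173 of GRCm38, and moved together from library to library. mt-Co2, a subunit of complex IV that takes electrons from cytochrome c, had 138, 631 and 350.1 CPM in F4/80high TAMs and 303, 114 and 643 CPM in F4/80low TAMs. mt-Co3, which supports the catalytic core, had 387, 1750.5 and 669 CPM against 910.1, 374 and 1161 CPM, and mt-Atp6, the proton channel of complex V, had 378, 1707 and 1028 CPM against 850.1, 335 and 1818 CPM. Within pairs, these 3 genes were higher in the high library of replicate 2 and in the low libraries of replicates 1 and 3. The pair differences were -1.13, 2.47 and -0.88 for mt-Co2, -1.23, 2.23 and -0.79 for mt-Co3 and -1.17, 2.35 and -0.82 for mt-Atp6, with edgeR adjusted p of 0.934, 0.948 and 0.937. mt-Atp8, mt-Nd3 and mt-Nd4l had far lower levels, of 1.41, 6.29 and 2.59 CPM against 3.18, 1.301 and 3.53 CPM for mt-Atp8, 7.18, 19.5 and 12.96 CPM against 10.1, 6.04 and 13.8 CPM for mt-Nd3 and 2.596, 9.82 and 5.83 CPM against 5.14, 2.65 and 9.79 CPM for mt-Nd4l. Their pair differences were -1.14, 2.22 and -0.44, -0.49, 1.68 and -0.088 and -0.97, 1.86 and -0.74, with the same signs as in mt-Co2 (edgeR, adjusted p of 0.928, 0.822 and 0.954).

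The swing can be read without any scaling as the ratio of the raw counts of these 6 genes to those of the other 7. This ratio was 0.281, 0.806 and 0.345 in the high libraries and 0.965, 0.267 and 0.659 in the low libraries. Each subset thus held libraries near 0.3 and libraries above 0.6. Neighbouring genes gave the same picture, since mt-Co2 held 0.131, 0.317 and 0.167 counts per count of mt-Co1 in the high libraries and 0.404, 0.126 and 0.268 in the low libraries. At the other end, mt-Nd4 held 139, 62.4 and 178 counts per count of mt-Nd4l in the high libraries and 57.2, 139 and 95.6 in the low libraries, and its gene overlaps mt-Nd4l by 7 bases.

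**Figure D3:**
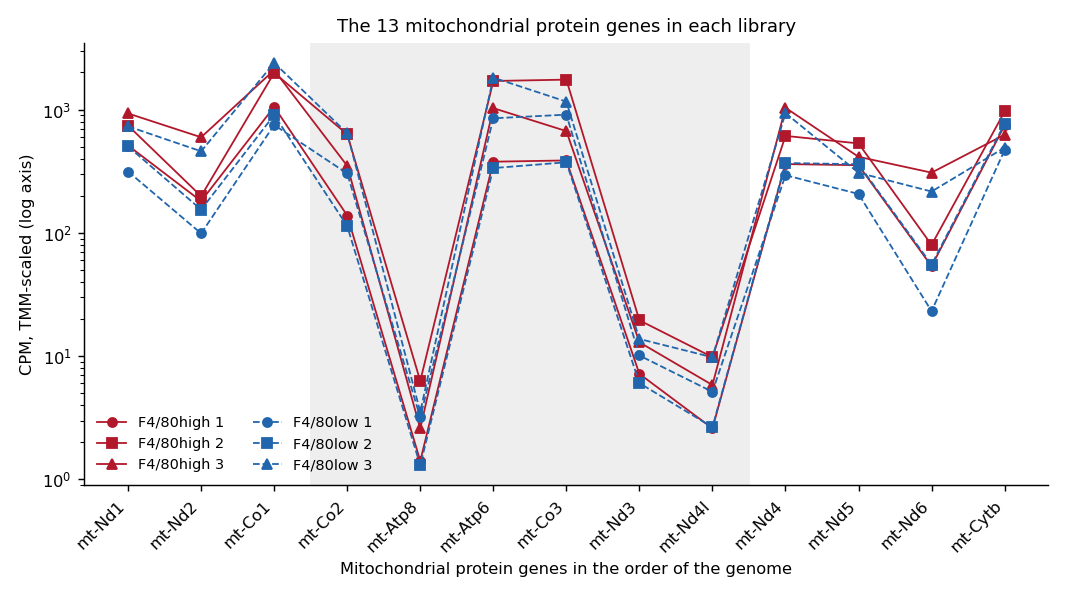
Lines join the TMM-scaled CPM (log axis) of the 13 mitochondrial protein genes in the order of the genome, with 1 line per library, solid for F4/80high and dashed for F4/80low TAMs. Within the shaded genes from mt-Co2 to mt-Nd4l, the lines of F4/80high replicate 2, F4/80low replicate 1 and F4/80low replicate 3 lie above those of the libraries they are paired with.

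Of these 6 genes, 5 have near-identical copies side by side in the nuclear genome. On chromosome 1, GENCODE M21 annotates unprocessed pseudogenes at chr1:24611535-24616197 (GRCm38, minus strand). At least 97.8% of the 75-base windows of mt-Co2, mt-Atp6, mt-Co3, mt-Nd3 and mt-Nd4l occur in these copies, against 61.5% of mt-Nd4, 27.5% of mt-Co1 and 0% of mt-Nd1, mt-Nd6, mt-Cytb and mt-Atp8. mt-Atp8 has no annotated copy there, and its place falls between the copies of mt-Co2 and mt-Atp6. The aligned copies of mt-Co2, mt-Atp6, mt-Co3 and mt-Nd4l are identical to the gene over the aligned bases, and that of mt-Nd3 differs at 1 base in 345, T3C, counted from the first base of the gene. The first 32 bases of mt-Nd3 and of its copy are shown with that base in capitals, because it is the place where reads of the gene and of the copy can be told apart:
mt-Nd3, chrM:9459-9490: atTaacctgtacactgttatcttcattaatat
Gm28438, on chromosome 1: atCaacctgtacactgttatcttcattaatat
The pseudogene rows of the tables held 275, 289 and 86 counts in the high libraries and 467, 244 and 45 counts in the low libraries, summed over 6 rows that also cover copies of mt-Nd4 and mt-Co1. The 4 rows that copy mt-Co2, mt-Atp6, mt-Co3 and mt-Nd3 held 0.0846% to 0.628% as many counts as those genes, and the copy of mt-Nd4l was not used here. How the counting treated reads that match both places is not given in the sources used here, so the levels of these genes are uncertain. The part of the shared sequence in the swing was not tested.

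By complex, the mitochondrial genes therefore gave medians that rest on which set a complex draws from. The 7 mitochondrial subunits of complex I had a median log2 fold change of 0.52 and pair medians of 0.70, 0.56 and 0.35. The 3 of complex IV had 0.31 and -1.13, 2.23 and -0.79, and the pair of complex V had 0.34 and -1.15, 2.28 and -0.63. With the replicate block their medians were 0.035 and 0.091, and mt-Co3 had a negative value (-0.028). Without the F4/80high library of replicate 2 the medians were -0.75 for complex IV and -0.68 for complex V, and without the F4/80low library of replicate 2 they were -0.20 and -0.11. The median for complex I was above 0 in both cases, at 0.30 and 0.70. For all 13 genes, the median was 0.086 without the former library.

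Added up by complex, the nuclear subunits were lowest in replicate 3 in both subsets. Complex V had the largest nuclear sum, at 2449.9, 2794 and 1091 CPM in F4/80high TAMs and 2113, 2627 and 1179.5 CPM in F4/80low TAMs. The accessory subunits of complex I summed to 1085, 1142 and 509 CPM in F4/80high TAMs and 822, 1211 and 438 CPM in F4/80low TAMs, and complex II to 561, 755 and 155 CPM in F4/80high TAMs and 526, 602 and 157 CPM in F4/80low TAMs. In each of these lists the subsets overlapped. All nuclear members together summed to 6251, 7000.1 and 2817 CPM in F4/80high TAMs and 5241, 6842 and 2807 CPM in F4/80low TAMs, and all mitochondrial members to 4173, 9240.1 and 8072 CPM in F4/80high TAMs and 4239, 3948 and 9188 CPM in F4/80low TAMs.

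**Figure D4:**
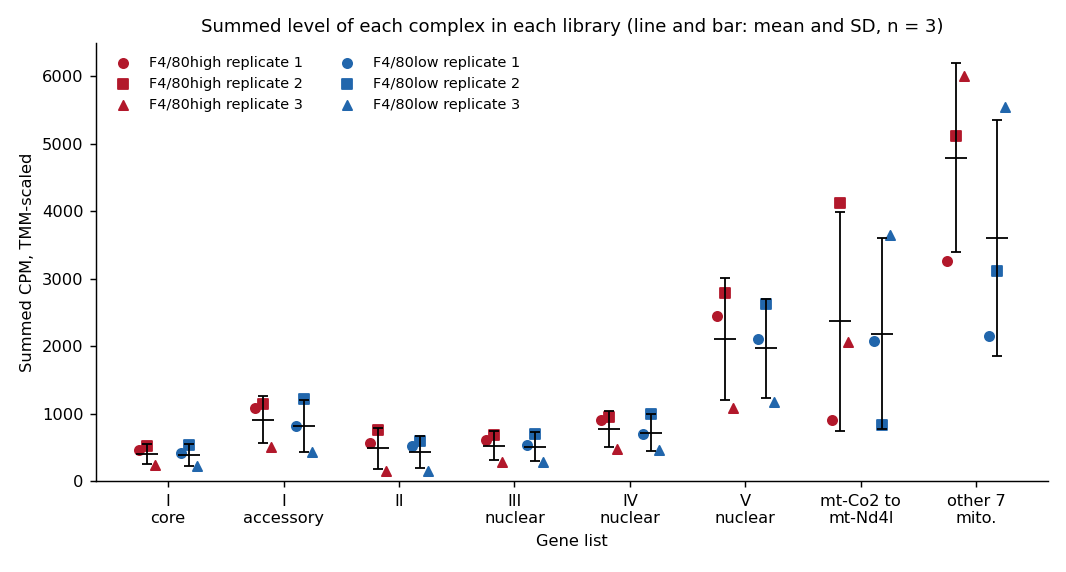
Points give the summed TMM-scaled CPM of each list in each library, with the mean and SD of 3 libraries per subset. In every nuclear list the replicate 3 libraries lie lowest in both subsets, and the 6 genes from mt-Co2 to mt-Nd4l range from 833 to 4123 CPM.

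With TMM scaling, the batches separated the members by genome, and for the mitochondrial genes this turned with the scaling. Between replicate 3 and the mean of replicates 1 and 2, 81 of 89 nuclear members were lower (91.01%, against 57.1% of all genes tested), with a median log2 difference of -1.28, against -0.31 for all genes. By contrast, 12 of 13 mitochondrial genes were higher, with a median of 0.80, and mt-Cytb was the exception. That direction rests on TMM factors of 0.646 and 0.602 in replicate 3, against 1.21 to 1.34 in the first batch. Scaled by the library total alone, 3 of the 13 were higher in replicate 3, with a median of -0.31, whereas 88 of 89 nuclear members were lower, with a median of -2.40. With TMM, the nuclear lists ranged from -2.17 in complex II to -0.87 in complex IV. Among the 8 nuclear members that were higher in replicate 3, Ndufb2 differed most, at 2.50, and mt-Nd6 had the largest difference of the mitochondrial genes, at 2.41. As a share of all counts, the nuclear members took 0.635% to 0.856% of the first-batch libraries and 0.152% and 0.163% of the second. The mitochondrial members took 0.494% to 1.09% of the first and 0.466% and 0.498% of the second. The batch and the experiment of replicate 3 cannot be told apart.

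**Figure D5:**
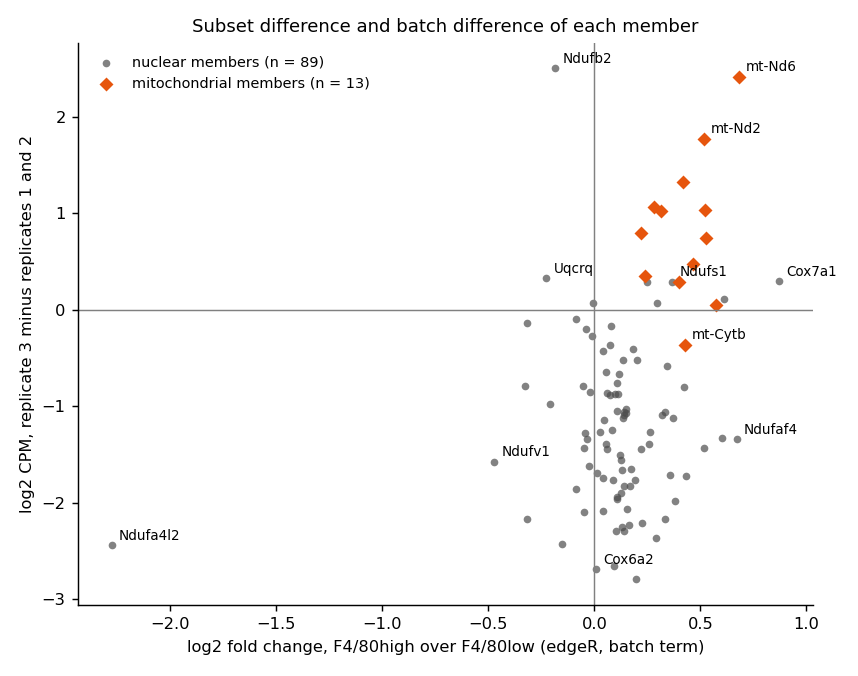
Each point is 1 member, with its log2 fold change between subsets (edgeR with a batch term) on the horizontal axis and its log2 CPM in replicate 3 minus that in replicates 1 and 2 on the vertical axis. The nuclear members spread vertically around a median of -1.28 and lie within 1 unit of 0 horizontally except Ndufa4l2, while all 13 mitochondrial genes lie to the right of 0 and, with TMM scaling, all but mt-Cytb above it (3 of 13 were above 0 with scaling by library total).

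Levels per length placed the mitochondrial genes above every nuclear member, except mt-Nd3, mt-Nd4l and mt-Atp8. Over all 6 libraries mt-Atp6 was highest, at 1497 CPM per kilobase, followed by mt-Co3 (1116) and mt-Co1 (991). In F4/80high TAMs they stood at 1523 ± 976, 1193 ± 918 and 1107 ± 370.4 CPM per kilobase (SD, n = 3). These SDs give the spread of each gene between libraries, and the differences between the genes were not tested. In complex I mt-Nd1 led at 650.03 and Ndufb2 was lowest at 1.84, and in complex III mt-Cytb led at 592 and Uqcrq was lowest at 29.1. These orders use the deposited length of each gene, and in CPM other members were lower than Ndufb2 and Uqcrq. The 3 low mitochondrial genes are the shortest, at 204 to 348 bases. Overlapping neighbours can split reads in the counting. mt-Atp8 and mt-Atp6 share 43 bases and mt-Nd4l and mt-Nd4 share 7, while mt-Nd3 overlaps no other member. The part of length and overlap in these low levels was not tested.

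Genes that support the chain were read from 9 lists of assembly factors, electron carriers, tricarboxylic acid cycle enzymes, mitochondrial RNA factors and regulators. Of their 95 genes tested, 65 had a log2 fold change above 0 (68.4%, against 50.8% of all genes tested) and the median was 0.18. At an unadjusted p under 0.05, 3 were higher in F4/80high TAMs (3.16%, against 3.26% of all genes) and 1 was lower (1.05%, against 4.3%), shares near or below those of all genes, and none passed after adjustment (smallest edgeR adjusted p = 0.5298). With the replicate block, 6 were higher (6.32%, against 3.96% of all genes) and 1 was lower, and again none passed after adjustment. The 3 genes of the batch fit are among the 15 genes of mitochondrial transcription and RNA, a list with 12 genes above 0 and a median of 0.33. In that list Tfb2m, a factor that opens mitochondrial promoters, had the smallest p, with 16.1, 17.5 and 15.3 CPM in F4/80high TAMs and 8.29, 10.8 and 2.16 CPM in F4/80low TAMs, and every high library lay above every low library (edgeR, log2 fold change 1.39, SE 0.44, adjusted p = 0.5298). Gpd2, which feeds electrons from glycerol 3-phosphate into ubiquinone, was the gene that was lower, with 42.1, 41.5 and 201 CPM against 65.8, 71.5 and 243 CPM (edgeR, log2 fold change -0.57, SE 0.21, adjusted p = 0.603).

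Other named genes of these lists did not reach an unadjusted p under 0.05 in the batch fit, whereas Cox15 and Idh3a did with the replicate block (edgeR, unadjusted p = 0.0361 and 0.0498, adjusted p = 0.452 and 0.507). Cox15, which makes heme for complex IV, had 33.3, 35 and 271 CPM in F4/80high TAMs and 29.6, 21.4 and 171 CPM in F4/80low TAMs (edgeR, log2 fold change 0.50, SE 0.22, adjusted p = 0.666). Cox17, a copper chaperone of the same complex, had 8.39, 9.31 and 598 CPM against 9.996, 12.6 and 718 CPM (edgeR, log2 fold change -0.32, SE 0.22, adjusted p = 0.739). In both the second batch lay far above the first. Idh3a, a subunit of the NAD-linked isocitrate dehydrogenase, had 66.8, 99.9 and 30.6 CPM against 54.5, 65.8 and 20.8 CPM (edgeR, log2 fold change 0.50, SE 0.24, adjusted p = 0.6896), and Myc, a regulator of growth and mitochondrial genes, had 118, 88.9 and 126 CPM against 76.3, 77.3 and 87.1 CPM (edgeR, log2 fold change 0.47, SE 0.22, adjusted p = 0.683). Both were higher in each pair. Pdss2, an enzyme of the ubiquinone tail, had 4.96, 6.54 and 12.7 CPM against 3.71, 1.23 and 8.198 CPM (edgeR, log2 fold change 1.03, SE 0.49, adjusted p = 0.687), and Esrra, a nuclear receptor that acts on respiratory genes, had 25.7, 20.9 and 41.2 CPM against 26.8, 25.1 and 73.1 CPM (edgeR, log2 fold change -0.38, SE 0.25, adjusted p = 0.739). The remaining named genes had log2 fold changes of 0.54 (Acad9), 0.32 (Sdhaf2), 0.35 (Bcs1l) and 0.90 (Atpaf1) on the high side and -0.14 (Timmdc1), -0.72 (Sdhaf3), -0.50 (Ttc19), -0.43 (Mterf2) and -0.21 (Mdh2) on the low side, with edgeR adjusted p of 0.7002 to 0.9403.

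Promoter letters, which the choice of members did not use, were read for the nuclear members. RefSeq promoters (GRCm38.p6, 250 bases before to 50 after the start) were matched for 74 of the 89. The core of the NRF1 motif, GCGCATGC, occurred on either strand in 12 of them (16.2%), against 5.42% of the 11050 tested genes with a promoter and 3.05% of all promoters. The YY1 motif AAGATGGC occurred in 11 (14.9%, against 4.697% and 3.19%). The GABP or ETS motif CCGGAAGT occurred in 5 (6.76%, against 8.05% and 4.31%). At least 1 of the 3 motifs occurred in 27 of the 74 (36.5%, against 16.9% of the tested genes), and Uqcr11 held the NRF1 core and the GABP or ETS motif at separate places. The other 47 held none. The shares for NRF1 and YY1 are above those of the tested genes, and that for GABP or ETS is below. A match is a description of the letters and no measure of binding, and the core of the NRF1 motif can match on both strands at overlapping places. As examples, for 8 members named above the motif is shown in capitals within its promoter, written on the strand of the gene:
Ndufaf4, NRF1 core, chr4:24897961-24897986, plus strand: cagatgtctGCGCATGCgcctgtgcg
Sdhb, NRF1 core, chr4:140961208-140961233, plus strand: gcccagtggGCATGCGCcctacgggc
Atp5g2, NRF1 core, chr15:102671073-102671098, minus strand: gctccggccGCGCATGCgcagagcct
Ndufa9, YY1, chr6:126849099-126849124, minus strand: ttgtgggagAAGATGGCggccgccgt
Ndufc1, YY1, chr3:51408917-51408942, minus strand: ctgcggaacAAGATGGCgccgtccgt
Atp5j2, YY1, chr5:145191502-145191527, minus strand: caggacttcAAGATGGCgtcactcgg
Ndufs3, GABP or ETS, chr2:90904705-90904730, minus strand: cacatttccACTTCCGGtccgtgccc
Uqcrh, GABP or ETS, chr4:116075065-116075090, minus strand: gtatgccgcACTTCCGGccaggtcgc
The 27 members with a motif had a median log2 fold change of 0.12, with 20 above 0, beside 68 of 89 above 0 and a median of 0.11 for all nuclear members. They ran from -0.33 in Atp5l to 0.67 in Ndufaf4.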

How the data were processed

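The authors deposited raw counts per gene for each of 6 poly-A RNA-seq libraries, with gene name, biotype and length, made by the standard pipeline of the center that sequenced them. Which aligner, build, annotation and strand setting it used, and how it counted reads, is not given in the sources used here. The members and gene lists were chosen with earlier results of these data known. Uqcr11 is named outside the rule below, after its motifs were seen.

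Protein-coding genes with at least 10 counts over the libraries were tested with edgeR 4.0.16 (R 4.3.3) by the quasi-likelihood test on TMM-scaled counts, with batch and subset as terms and Benjamini-Hochberg adjustment over 14776 genes. Batches follow the key of the study's principal component plot. The study used DESeq2 with batch correction, and DESeq2 1.42.0 was an alternative here. The code was tested on simulated data. Same-numbered libraries deviated together from their subset means, with correlations of 0.745, 0.729 and 0.907 over 10089 genes. The replicate number was used as a block in another fit. Correlations between libraries of different numbers are not given here, and the batch difference is part of these deviations. The values therefore cannot show that replicates 1 and 2 are matched between the subsets. Pair differences are log2 ratios of CPM with a prior count of 2. Levels were compared between genes per kilobase of the deposited length. For 68 members this length equals the summed exons of the gene in GENCODE M21. It can differ from the length of the transcripts present, so the order of genes per length depends on it. Depth limits low genes, since 3 counts equal an unscaled 0.0688 to 0.187 CPM. Libraries of 1 subset differed by more than sampling noise (chi-square per degree of freedom of at least 159.8), and p-values measure the spread between these libraries.

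Named genes were the mitochondrial genes, complex II, the 2 smallest p in each direction in each nuclear list, paralogs, the highest and lowest level per length in each complex, members called by the batch or block fit (none), members whose subsets did not overlap with an unadjusted p under 0.05 (none), and Adgre1 and the smallest p in each direction in each supporting list. A result that this rule would name is not reported here. Coordinates come from GENCODE M21 (GRCm38), where 102 members matched by gene ID and 101 by symbol, and 68 had the deposited length. Figures were drawn with matplotlib 3.10.9.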

Additional observations from a re-analysis of the deposited data

Results flagged for a closer look

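Signal outside the respiratory chain genes was present in related rows of the tables. The mitochondrial large ribosomal RNA, mt-Rnr2, is no member and held up to 249861 counts in a library, the F4/80high library of replicate 3. The pseudogenes on chromosome 1 that copy mitochondrial genes held up to 467 summed counts, in the F4/80low library of replicate 1. As a share of all counts, mt-Rnr1 and mt-Rnr2 together took 0.801% ± 0.678 of the high and 0.702% ± 0.533 of the low libraries (SD, n = 3, exact two-sided permutation test that ignores the pairs and the batch, p = 0.8). By replicate the shares were 0.391%, 0.429% and 1.58% in the high and 0.188%, 0.664% and 1.25% in the low libraries. Replicate 3 was highest in both subsets, so the SDs include the batch difference. The pseudogene counts were not tested.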

How the results depend on the processing

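No member passed the threshold in the edgeR or DESeq2 fits tried, whether with the batch term, the replicate block or no batch term, with RLE, library-size or nuclear-gene scaling, under other filters on low counts, with the length trend removed, with 1 library left out, or with replicates 1 and 2 alone. With an adjusted p under 0.05 and no fold threshold there was likewise none. The count of genes called, which was 0 with the batch term, was 76 with the replicate block, 33 with the block and the length trend removed, 150 in DESeq2 with the batch term, 357 in DESeq2 with the block, and 73 with the block and scaling from nuclear genes, a setting chosen after seeing the data. With 1 library left out it ranged from 0 to 55, the latter without the F4/80high library of replicate 1. The pairing changed no call of a member.

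With 1 library left out, medians ranged from -0.026 to 0.22 in complex II, from -0.26 to 0.12 in the complex I assembly factors, from 0.30 to 0.70 in mitochondrial complex I and from 0.24 to 0.64 in mt-Cytb. With replicates 1 and 2 alone the assembly factors stood at 0.12. The block with the length trend removed put mitochondrial complex IV at -0.023. Of 56 named members, 29 had the same sign in every fit. Pair medians and shares of counts moved by less than the spread between replicates with a prior count of 0.5, scaling by library size, or protein-coding counts as the total, though the pair 3 median of all mitochondrial members went from -0.088 to 0.013 with scaling by library size. Between replicate 3 and the first batch, 12 of 13 mitochondrial genes were higher with TMM and 3 with scaling by library total, chosen after seeing the data. The causes were not tested.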
